A study of Mus musculus with 37 samples.

Results

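The comparison described here is that of 5 knockout with 6 wild-type gastrocnemius muscles at 4 weeks of age, 11 of the 37 libraries of the series. The libraries were chosen by their labels alone: animals 1 to 6 are wild type, and animals 7, 8, 10, 11 and 12, titled HOM and given the genotype SMNKO, lack Nampt in skeletal muscle. Gastrocnemius is a mixed calf muscle in which fast fibres prevail. The series follows both genotypes at 2, 4, 6 and 8 weeks, and the libraries of the other ages were used to estimate the spread and to set the 4-week differences beside those of 2 and 8 weeks. Sequencing pool A held animals 1, 2, 3, 7 and 8, and pool B held animals 4, 5, 6, 10, 11 and 12. The labels call animals 1, 3, 4 and 11 female and the other 7 male. The knockout is described only as specific to skeletal muscle. The promoter that drives the recombinase, the deleted exons and the strain are not given in the sources used here. The muscle also holds blood vessels, nerve, connective tissue and immune cells, which keep the gene if the deletion is confined to muscle fibres. The labels number the libraries and do not say that each is a separate mouse, so p-values measure the spread between these libraries.

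NAD is the electron carrier of glycolysis and of the mitochondria, and it is also consumed by sirtuins, PARP enzymes and other enzymes that release nicotinamide. Nampt, nicotinamide phosphoribosyltransferase, turns that nicotinamide into nicotinamide mononucleotide, and the Nmnat enzymes turn the mononucleotide into NAD. Muscle can also make the mononucleotide from nicotinamide riboside through the kinases Nmrk1 and Nmrk2. Other routes to NAD, not all of which need run in muscle, start from nicotinic acid through Naprt and from tryptophan through Qprt.

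Total counts ran from 10795778 to 23134727 in the 6 wild-type libraries and from 6668855 to 20997634 in the 5 knockout libraries. Genes annotated as nuclear rRNA held 11.6% of the reads counted for animal 3, 8.49% for animal 4 and 29.3% for animal 8, and at most 0.777% for each of the other 8 animals. The comparison was therefore repeated without animals 3, 4 and 8, and each named gene whose call ended is pointed out below. Knockout animal 12, labelled male, had 63.8 CPM (counts relative to the scaled library size) of the female RNA Xist and 0.0644 CPM of the Y-linked Ddx3y, and wild-type animal 4, labelled female, had both (45.1 and 8.00 CPM). Skeletal muscle markers were abundant in all 11 libraries: the 12 markers, among them Acta1, Ckm and Ttn, summed to between 245120 and 349930 CPM in wild type and between 248270 and 278520 CPM in knockout. Of these 12, 1 was called changed, the intermediate filament desmin (Des), which rose by 0.36 (SE 0.11) with an adjusted p of 0.0441 in edgeR and lost the call without animals 3, 4 and 8 (adjusted p = 0.176). Leaving out 1 library also ended the call of Des (any of animals 1, 2, 3, 5, 6, 7, 8 and 12, up to 0.172).

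By edgeR's quasi-likelihood test, 947 of 16728 genes passed a Benjamini-Hochberg adjusted p of 0.05 at 4 weeks. Of these, 413 rose (2.47% of genes tested) and 534 fell (3.19%). Without animals 3, 4 and 8 the numbers were 130 higher (0.777%) and 133 lower (0.795%), and 246 genes were called in the same direction with and without them, 119 higher and 127 lower. With the spread estimated from the 11 libraries of 4 weeks alone, 162 genes were higher (0.969%) and 148 lower (0.885%). A set of 140 genes, 58 higher and 82 lower, was called in all 3 of these fits. Both changes at once, the 4-week libraries alone without animals 3, 4 and 8, gave 44 genes higher and 23 lower. Counting only order, 173 genes (1.03%) lay higher in each of the 5 knockout libraries than in any of the 6 wild-type libraries, and 296 (1.77%) lay lower. The median log2 fold change of all genes tested was -0.0028, and 49.6% of them lay above 0 and 50.4% below. The median log2 fold change of each gene group below is followed in brackets by its value without animals 3, 4 and 8. Counts of called members in each group are to be read beside the 2.47% of all genes that rose and the 3.19% that fell.

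Nampt (chromosome 12, 32819545 to 32853349, plus strand, GRCm38) was lower in every knockout library. It ran from 104.98 to 155 CPM (median 123) in wild type, and knockout animals 7, 8, 10, 11 and 12 held 76.1, 55.1, 64.4, 55.2 and 63.2 CPM. The groups did not overlap, and the knockout mean was 49.0% of the wild-type mean. The log2 fold change was -1.03 (SE 0.11) with an adjusted p of 2.36e-07 in edgeR, and an exact permutation test of the log2 levels (two-sided) gave p = 0.00216, the smallest these group sizes allow. The fall was -0.96 without animals 3, 4 and 8, -0.95 in pool A alone and -1.03 in pool B alone. The counts sum the whole gene, so transcript of undeleted exons and transcript of cells other than muscle fibres cannot be told apart in the remainder.

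Nmrk2, the muscle nicotinamide riboside kinase (chromosome 10, 81198170 to 81202051, minus strand), had the largest log2 fold change of the named genes that were called. It ran from 11.9 to 43.5 CPM (median 20.1) in wild type and stood at 329, 607, 264, 136 and 553 CPM in knockout animals 7, 8, 10, 11 and 12. The lowest knockout library, animal 11, held 136 CPM, well above the highest wild-type library, animal 4. Its log2 fold change was 4.03 (SE 0.44) with an adjusted p of 1.7e-06 in edgeR, and 4.25 without animals 3, 4 and 8 (adjusted p = 3.26e-05). The 250 bases before the RefSeq start of Nmrk2 (GRCm38.p6, chr10:81202038-81202287, printed on the minus strand) are shown because no other gene of NAD synthesis was called higher. Capitals mark the 1 match to the antioxidant response element TGACNNNGC, searched on both strands and found here on the strand opposite to the gene.
Nmrk2: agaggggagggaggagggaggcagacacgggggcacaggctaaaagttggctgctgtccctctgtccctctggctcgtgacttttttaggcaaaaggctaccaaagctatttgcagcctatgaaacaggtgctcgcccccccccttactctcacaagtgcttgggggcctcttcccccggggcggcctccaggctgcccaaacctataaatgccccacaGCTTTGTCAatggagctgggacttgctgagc
Of 32851 RefSeq promoter windows of that length, 10.2% held at least 1 match. The windows of Nmrk1 and Nampt held none. Metal response elements (TGCACNC or TGCGCNC) and heat shock elements (GAANNTTC) were searched as well and had no match in the Nmrk2 window. The 10.2% is for the antioxidant response element alone. A match describes letters only.

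The rest of NAD synthesis did not pass the test. Of 23 genes listed, 17 were measured well enough to be tested, and those not tested included Tdo2, Ido1, Ido2 and Kynu of the tryptophan route. Among the 17, 1 rose (Nmrk2) and 1 fell (Nampt), the same 2 in all 3 fits, and the median of the list was -0.08 (0.04). Nmrk1, the widely expressed kinase of the same step, was at -0.31 (SE 0.17) with an adjusted p of 0.281 in edgeR. Levels of Nmrk1 were 4.21 to 5.23 CPM (median 5.02) in wild type and 3.18, 2.28, 5.03, 4.85 and 3.74 CPM in knockout, and animals 7, 8 and 12 lay below every wild-type library.

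The enzymes of the last step, Nmnat1, in the nucleus, and Nmnat3, in mitochondria, were at 0.25 (SE 0.10) and -0.08 (SE 0.11), and the low-level Nmnat2 was at -0.86 (SE 0.34). Naprt and Nadsyn1, of the route from nicotinic acid, were at 0.24 (SE 0.16) and 0.19 (SE 0.15). Qprt, which opens the end of the tryptophan route, was at -0.15 (SE 0.25), and Afmid and Kmo, earlier on that route, at 0.08 (SE 0.25) and 0.92 (SE 0.53). Haao, also on that route, had at most 3 counts in each library but knockout animal 7, which had 11. Among these genes the edgeR adjusted p-values ran from 0.129 for Nmnat2 to 0.904 for Afmid. The mitochondrial NAD carrier Slc25a51 was at -0.13 (SE 0.08), the NAD kinases Nadk and Nadk2 at -0.11 (SE 0.10) and -0.12 (SE 0.12), the ectonucleotidase Nt5e at -0.17 (SE 0.17) and the proposed mononucleotide carrier Slc12a8 at 0.41 (SE 0.42). None of these passed.

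Among 26 genes that consume NAD or clear nicotinamide (sirtuins, PARP enzymes, Nnmt and others), 1 rose. It was the tankyrase Tnks, a PARP family member, at 0.40 (SE 0.12) with an edgeR adjusted p of 0.0408, lost without animals 3, 4 and 8 (0.172). Leaving out a single library also ended the call of Tnks (any of animals 1, 2, 3, 5, 7, 8 and 12, up to 0.142). The median of the list was 0.02 (0.07).

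**Figure D1:**
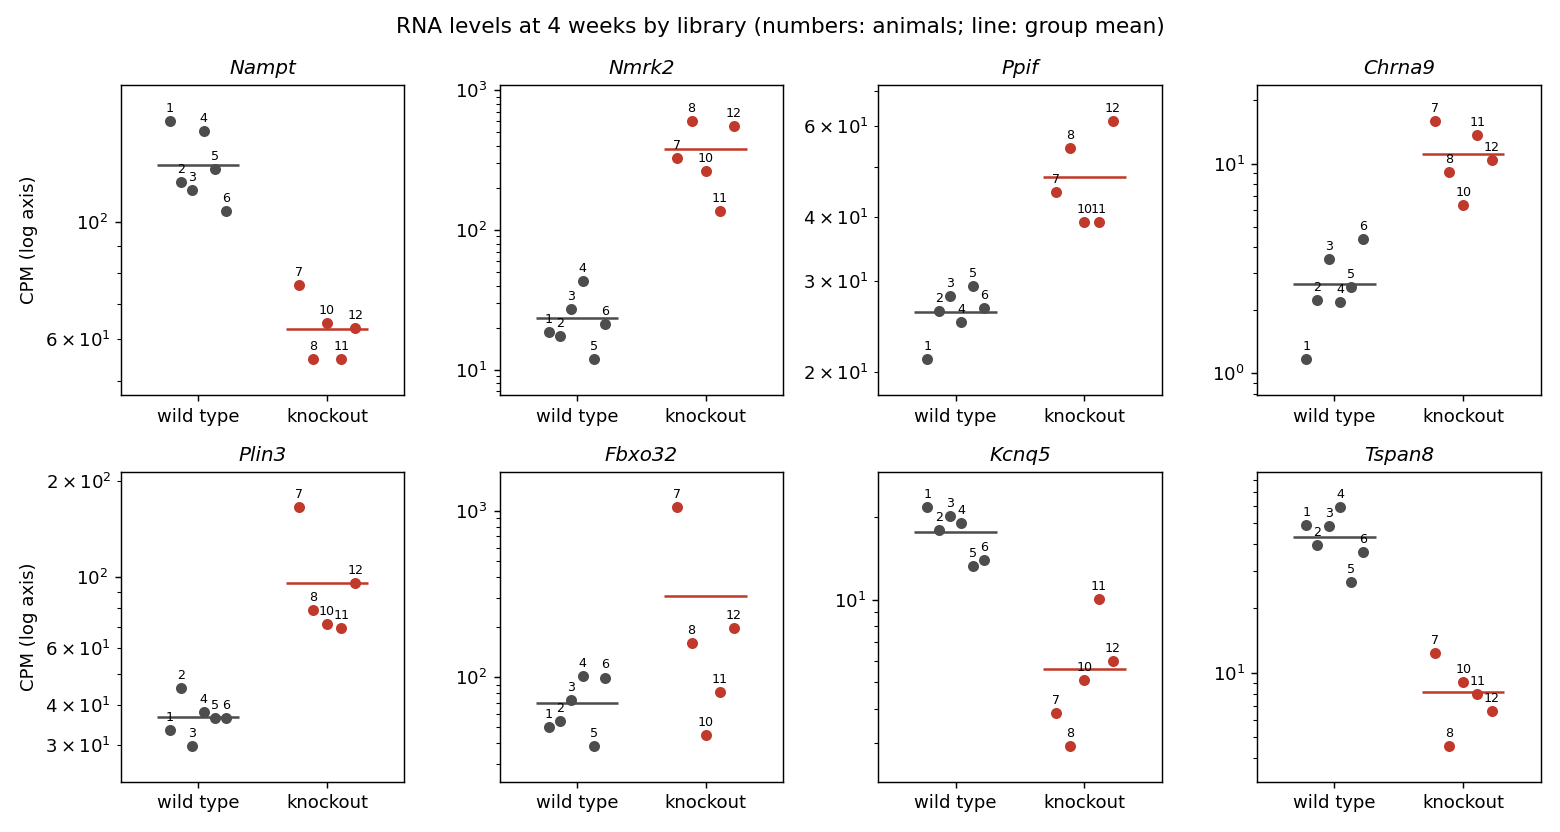
RNA level in CPM on a log axis for 8 genes in the 6 wild-type (grey) and 5 knockout (red) libraries of 4 weeks, with animal numbers beside the points and a line at each group mean. Nampt, Kcnq5 and Tspan8 lie lower and Nmrk2, Ppif, Chrna9 and Plin3 higher in all 5 knockout libraries, while for Fbxo32 knockout animals 10 and 11 lie within the wild-type range.

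The largest rises that were called with and without animals 3, 4 and 8 held several receptor, transport and lipid genes beside Nmrk2. Chrna9, the alpha 9 subunit of the nicotinic acetylcholine receptor (chromosome 5, 65934921 to 65977326, plus strand), ran from 1.17 to 4.34 CPM (median 2.41) in wild type and stood at 16.01, 9.12, 6.35, 13.7 and 10.4 CPM in knockout animals 7, 8, 10, 11 and 12. No knockout value overlapped the wild type, and the log2 fold change was 2.10 (SE 0.27) with an adjusted p of 8.12e-06 in edgeR. Plin3, a coat protein of lipid droplets, ran from 29.8 to 45.2 CPM (median 36.4) in wild type against 165, 78.8, 71.3, 69.4 and 96.0 CPM in the knockout animals, again without overlap (1.401, SE 0.19, edgeR adjusted p = 4.15e-05).

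Gabrr2, a rho subunit of the GABA receptor, ran from 1.82 to 7.17 CPM (median 4.56) in wild type and stood at 20.9, 14.7, 7.43, 16.8 and 13.5 CPM in knockout (1.53, SE 0.23, edgeR adjusted p = 6.49e-05). Slc22a4, a transporter of organic cations and ergothioneine, was 0.593 to 1.70 CPM (median 1.01) in wild type and 6.66, 9.77, 2.06, 1.78 and 2.83 CPM in knockout (1.97, SE 0.30, edgeR adjusted p = 0.000152). For both genes the lowest knockout library lay just above the highest wild-type library. Dusp18, a dual-specificity phosphatase, ran from 8.06 to 13.3 CPM (median 10.01) in wild type and stood at 50.5, 42.4, 17.3, 15.04 and 69.7 CPM in knockout (1.92, SE 0.38), higher in 5 of 5 but by far less in animals 10 and 11. Fam83g, a casein kinase binding protein, was at 1.51 (SE 0.33) and Nwd1, a protein with NACHT and WD repeat domains, at 1.71 (SE 0.30), each higher in 5 of 5 knockout libraries. Odf3l2, named for outer dense fibres of sperm tails, was at 2.34 (SE 0.63) with an edgeR adjusted p of 0.0251, and its call rested on single libraries: Odf3l2 (any of animals 1, 2, 7 and 12, up to 0.16).

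In the other rises the 5 knockout animals were unlike one another. Retreg1, a receptor for the autophagy of endoplasmic reticulum, ran from 145 to 244 CPM (median 167) in wild type and stood at 959.6, 530.1, 199, 205 and 749 CPM in knockout animals 7, 8, 10, 11 and 12, so that animals 10 and 11 lay within the wild-type range. Depp1, a FOXO-induced gene of autophagy, was 5.39 to 13.4 CPM (median 8.51) in wild type and 159, 7.17, 10.6, 6.49 and 33.3 CPM in knockout, where animals 7 and 12 alone lay above the wild type. Klhl38, a kelch protein, was 2.16 to 5.81 CPM (median 4.81) in wild type and 37.8, 9.45, 1.83, 5.42 and 13.1 CPM in knockout. Cyp1b1, a cytochrome P450, was 0.106 to 0.607 CPM (median 0.466) in wild type and 5.63, 0.326, 0.858, 0.784 and 1.48 CPM in knockout, where animal 8, on 1 count, was within the wild-type range. The calls of Depp1, Klhl38, Cyp1b1, Fbxo32 and Fkbp5 were lost without animal 7, with edgeR adjusted p-values of 0.47, 0.243, 0.212, 0.174 and 0.0777. Lgals3, the lectin galectin 3, Serpina3n, a protease inhibitor of the acute phase, the AP-1 factor Junb and the chaperone Cryab are given with their groups below. With the 4-week libraries alone 9 of the 19 large rises named here kept their call, namely Nmrk2, Odf3l2, Chrna9, Slc22a4, Nwd1, Gabrr2, Fam83g, Plin3 and Cryab. When animals 3, 4 and 8 were left out of those libraries, 4 of the 19 kept it, and in pool B alone 1 did.

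The largest falls were less divided by animal. Of the 20 largest, Nampt included, 19 lay lower in 5 of 5 knockout libraries than in any wild-type library, and Arpp21 did so in 4 of 5. Among all genes tested 1.77% lay lower in 5 of 5, and among all called falls 41.2% did. The 20 were picked as large falls called in these same libraries, so their count is a description. All 20 kept their call with the 4-week libraries alone. When animals 3, 4 and 8 were left out of those libraries, Nampt and 10 of the 19 other falls kept it. In pool B alone Nampt and 7 of the 19 did. Tspan8, a tetraspanin of the cell surface (chromosome 10, 115816832 to 115849893, plus strand), ran from 26.5 to 59.2 CPM (median 43.9) in wild type and stood at 12.4, 4.56, 9.03, 7.99 and 6.63 CPM in knockout animals 7, 8, 10, 11 and 12. Its fall was -2.25 in pool A and -2.33 in pool B. Pld5, a phospholipase D family member, ran from 1.70 to 3.45 CPM (median 2.505) in wild type and stood at 0.489, 0, 0.686, 0.784 and 0.386 CPM in knockout, where animal 8 had no count (-2.25, SE 0.44, edgeR adjusted p = 0.00227). Mettl21e, a muscle lysine methyltransferase, was 5.71 to 9.97 CPM (median 7.11) in wild type and 1.57, 1.95, 2.69, 1.64 and 1.61 CPM in knockout. Neither gene overlapped between the groups.

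Rnf128, a ubiquitin ligase of the endosome, ran from 28.8 to 37.7 CPM (median 31.7) in wild type and stood at 9.99, 5.54, 14.9, 15.4 and 11.2 CPM in knockout. Bche, butyrylcholinesterase, was 10.48 to 17.3 CPM (median 13.8) in wild type and 6.56, 2.93, 6.86, 5.78 and 5.86 CPM in knockout (-1.26, SE 0.18, edgeR adjusted p = 5.32e-05). Hook1, an adaptor between cargo and the motor dynein, was 14.3 to 22.1 CPM (median 16.2) in wild type and 9.40, 7.49, 6.63, 6.99 and 7.54 CPM in knockout (-1.19, SE 0.17, edgeR adjusted p = 4.7e-05). These 3 genes stood clear of the wild type in each animal, and Hook1 was as low in animals 10 and 11 as in the others. Sema3a, a secreted guidance cue of axons, ran from 7.54 to 13.2 CPM (median 10.51) in wild type and stood at 3.38, 2.61, 4.92, 6.92 and 3.86 CPM in knockout (-1.21, SE 0.21, edgeR adjusted p = 0.000884).

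A pair of glycosyltransferases fell, B3galnt2, which builds the matrix-binding sugar of dystroglycan, and B3galt1. B3galnt2 ran from 98.5 to 127 CPM (median 115) in wild type and stood at 39.01, 37.8, 79.4, 69.8 and 40.6 CPM in knockout (-1.11, SE 0.19, edgeR adjusted p = 0.000757), where animals 10 and 11 lay midway. B3galt1 was at -1.12 (SE 0.23). Further falls were Prrg1, a membrane protein with a Gla domain (-1.16, SE 0.16), Nhs, named for Nance-Horan syndrome (-1.26, SE 0.25), BB218582, annotated as a processed transcript (-1.36, SE 0.24) and Arpp21, a cAMP-regulated phosphoprotein (-1.09, SE 0.25), which lost its call without animal 7 (edgeR adjusted p = 0.0513). Cd28, a costimulatory receptor of T cells, ran from 9.99 to 18.7 CPM (median 14.1) in wild type and stood at 2.69, 0.652, 5.49, 5.63 and 2.77 CPM in knockout. Amy1, salivary amylase, was 4.90 to 8.96 CPM (median 6.91) in wild type and 2.40, 0.977, 2.06, 1.64 and 1.42 CPM in knockout, a count that may be shared with near-identical amylase copies.

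**Figure D2:**
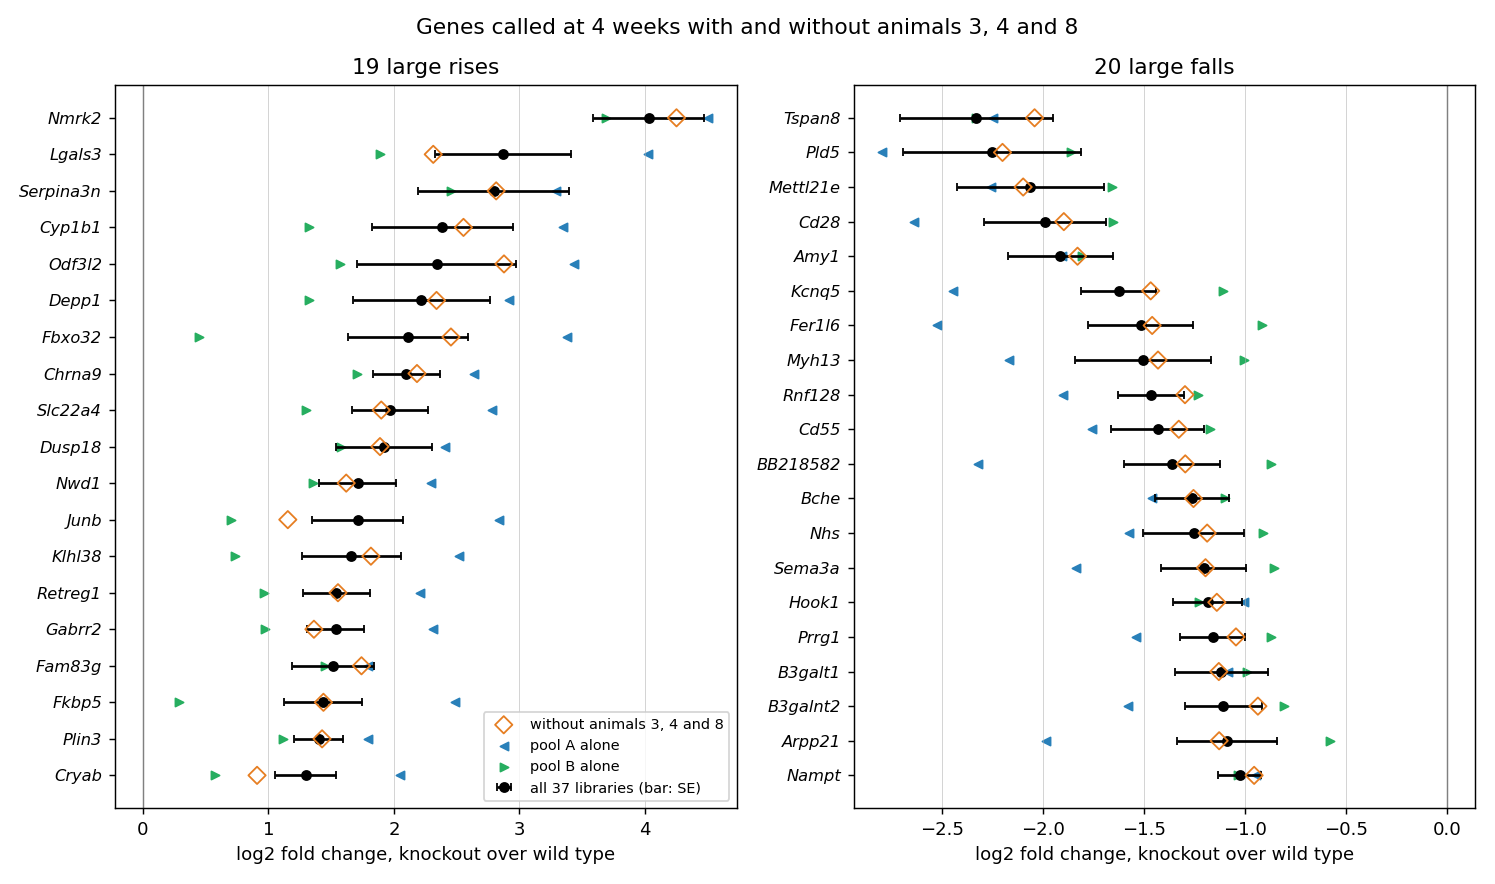
Log2 fold change of 19 of the 20 largest rises and of the 20 largest falls in the fit of all 37 libraries (black, bars are SE), without animals 3, 4 and 8 (open diamonds) and in each sequencing pool alone (triangles). The estimates lie close together for Amy1 and Hook1 and lie far apart for Fbxo32 (3.38 in pool A, 0.45 in pool B) and Fkbp5.

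The series title names mitochondrial swelling, and in 28 genes of mitochondrial calcium, the permeability pore and mitochondrial shape 2 rose. Ppif, cyclophilin D, which promotes opening of the permeability transition pore (chromosome 14, 25694154 to 25700468, plus strand), ran from 21.2 to 29.4 CPM (median 26.5) in wild type and stood at 44.6, 54.4, 39.05, 39.001 and 61.4 CPM in knockout animals 7, 8, 10, 11 and 12. The groups did not overlap, and the rise was 0.86 (SE 0.10) with an edgeR adjusted p of 2.44e-06, 0.996 in pool A and 0.80 in pool B. Slc25a5, an ADP/ATP carrier, rose by 0.50 (SE 0.15) with an edgeR adjusted p of 0.0404, a call lost without animals 3, 4 and 8 (0.262) and in the 4-week libraries alone (0.108). It also depended on single libraries: Slc25a5 (any of animals 1, 3, 4, 7, 8 and 12, up to 0.171). Micu3, a regulator of the calcium uniporter, missed the threshold (-0.71, SE 0.23, edgeR adjusted p = 0.0581) but was called in the 4-week libraries alone (0.0117) and lay lower in 5 of 5 knockout libraries, with 23.4 to 30.1 CPM (median 28.6) in wild type and 14.2, 12.1, 21.3, 20.7 and 15.9 CPM in knockout. The median of the list was -0.01 (0.0035).

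Genes of the respiratory chain were not called. None of 36 complex I subunits passed, at a median of -0.14 (-0.05). A log2 fold change above 0 was found in 5 of the 36, where 49.6% of all genes had one. In knockout animal 8 the mean of complex I lay 0.74 log2 units below the wild-type mean, and the other 4 knockout libraries lay between -0.12 and 0.12. Of 40 nuclear subunits of complexes III to V none passed, at a median of -0.02 (0.04), although 1, Cox7a2l (0.50, edgeR adjusted p = 0.0383), did so without animals 3, 4 and 8. None of the 8 mitochondrial messenger RNAs tested passed, at a median of -0.06 (-0.15). Mitochondrial genes made up 25.04% of the reads counted for animal 3 and 19.8% for animal 8, against 5.06% to 10.9% in the other 9 libraries.

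In 34 genes of glycolysis and glycogen 2 rose and the median was 0.04 (0.11). Gbe1, the branching enzyme of glycogen, ran from 56.3 to 77.7 CPM (median 68.0) in wild type and stood at 216, 148, 116, 88.8 and 129 CPM in knockout, higher in 5 of 5 (1.05, SE 0.18, edgeR adjusted p = 0.000538), and was called in all 3 fits. Hk2, the insulin-regulated hexokinase, was 175 to 270.04 CPM (median 259) in wild type and 455, 869, 289, 222 and 448 CPM in knockout (0.87, SE 0.19), a call lost without animals 3, 4 and 8 (edgeR adjusted p = 0.0685). Of 35 genes of pyruvate dehydrogenase and the TCA cycle, Pdk4 and Ogdhl rose and Pdp1 fell, and none of the 3 was called in the other fits. The median was 0.05 (0.11). Pdk4, the kinase that inhibits pyruvate dehydrogenase, ran from 70.2 to 498 CPM (median 163) in wild type and stood at 1733, 1341, 215, 219 and 1431 CPM in knockout, where animals 10 and 11 lay within the wild-type range. Pdp1, the phosphatase that activates the same enzyme, was 93.9 to 126 CPM (median 113) in wild type and 74.5, 62.6, 96.0, 97.8 and 71.6 CPM in knockout (-0.48, SE 0.14, edgeR adjusted p = 0.0359), and Ogdhl, a form of oxoglutarate dehydrogenase, was at 0.97 (SE 0.29). A single omitted library ended the calls of Pdp1 (any of animals 1, 3, 4, 7, 8 and 12, up to 0.13) and Ogdhl (any of animals 1, 2, 4, 5, 7, 8, 11 and 12, up to 0.119).

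Of 39 genes of fatty acid uptake and oxidation 5 rose, where 2.47% of all genes did, and none fell. A log2 fold change above 0 was found in 37, where 49.6% of all genes had one, and the median was 0.19 (0.29). The animals were not alike: the mean of the list stood at 0.44, -0.28, 0.07, 0.26 and 0.87 log2 units from the wild-type mean in knockout animals 7, 8, 10, 11 and 12, and wild type ran from -0.27 to 0.54. Animal 12 alone lay above every wild-type library, and animal 8 lay below every one. Plin4, a lipid droplet coat protein of muscle, ran from 201 to 261 CPM (median 218) in wild type and stood at 547, 271, 292, 298 and 473 CPM in knockout, higher in 5 of 5 (0.74, SE 0.18, edgeR adjusted p = 0.0105). Plin4 was called in all 3 fits, though not without animal 7 (0.0946). Pnpla2, the triglyceride lipase ATGL, was 103 to 188 CPM (median 155) in wild type and 329, 227, 149, 192 and 227 CPM in knockout (0.60, SE 0.17, edgeR adjusted p = 0.0373). Ucp2, a mitochondrial carrier, was 7.05 to 13.4 CPM (median 9.45) in wild type and 19.2, 34.9, 12.3, 14.3 and 31.4 CPM in knockout, and Angptl4, an inhibitor of lipoprotein lipase, was 1.21 to 12.2 CPM (median 3.12) and 31.03, 30.3, 4.63, 7.70 and 45.9 CPM. The calls of Pnpla2, Ucp2 and Angptl4 were lost without animals 3, 4 and 8 (edgeR adjusted p-values of 0.0834, 0.0717 and 0.0717), and that of Pnpla2 (any of animals 1, 2, 5, 7, 8 and 12, up to 0.211) also rested on single libraries.

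Genes that respond to fasting and glucocorticoids rose in 6 of 17 members, where 2.47% of all genes rose, with a median of 0.56 (0.66). The gene lists can share members, and Pdk4, given above with pyruvate dehydrogenase, also belongs to this list. Fkbp5, a co-chaperone of the glucocorticoid receptor, ran from 12.8 to 18.3 CPM (median 14.0) in wild type and stood at 97.4, 50.2, 14.4, 16.4 and 24.5 CPM in knockout animals 7, 8, 10, 11 and 12. Gadd45b, a stress-induced gene, was 6.10 to 17.2 CPM (median 8.13) in wild type and 32.6, 15.6, 10.46, 24.5 and 18.5 CPM in knockout (1.06, SE 0.27, edgeR adjusted p = 0.0169). Single omitted libraries ended the calls of Gadd45b (any of animals 1 and 7, up to 0.145) and Fkbp5 (animal 7, up to 0.0777). Fkbp5 was the 1 member called without animals 3, 4 and 8, and none was called in the 4-week libraries alone. In the mean of the list, animals 7, 12 and 8 stood 1.499, 0.86 and 0.61 log2 units above the wild-type mean, beyond the highest wild-type library at 0.29, and animals 10 and 11 stood at 0.07 and 0.16.

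Of 21 atrophy genes and ubiquitin ligases 3 rose, where 2.47% of all genes did, at a median of 0.16 (0.21). Fbxo32, the muscle ligase atrogin-1, ran from 38.7 to 102 CPM (median 63.9) in wild type and stood at 1044, 159.6, 44.8, 81.0 and 196 CPM in knockout, so that animal 7 stood far above the rest and animals 10 and 11 lay within the wild-type range. Foxo3, a forkhead factor that switches on atrophy genes, was 48.6 to 61.9 CPM (median 53.2) in wild type and 103, 63.9, 50.8, 69.1 and 71.2 CPM in knockout (0.42, SE 0.11, edgeR adjusted p = 0.0155), a call lost without animals 3, 4 and 8 (0.0501) and without animal 7 (0.17). Psmd11, a proteasome subunit, was at 0.56 (SE 0.16), and its call ended without animals 3, 4 and 8 (edgeR adjusted p = 0.261) and without single libraries: Psmd11 (any of animals 1, 2, 3, 5, 7 and 8, up to 0.217). Gabarapl1, which binds autophagosome membranes, was the 1 rise among 23 genes of autophagy and lysosome (18.7 to 31.7 CPM (median 20.9) in wild type, 81.2, 60.6, 18.5, 25.6 and 35.8 CPM in knockout), and it too lost its call without animals 3, 4 and 8 (edgeR adjusted p = 0.12) and without animal 7 (0.145). The median of that list was 0.12 (0.17).

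In 26 genes of growth signalling and polyamines 2 rose and 2 fell, at a median of -0.01 (-0.05). Sat1, which acetylates spermidine and spermine for breakdown, ran from 10.2 to 13.8 CPM (median 10.6) in wild type and stood at 24.2, 28.996, 14.5, 12.7 and 21.2 CPM in knockout (0.84, SE 0.15, edgeR adjusted p = 0.000884), called in all 3 fits. Rps6kb1, the S6 kinase, fell by 0.39 (SE 0.10) and Irs1, the insulin receptor substrate, by 0.49 (SE 0.15), while Mtor, the growth kinase, rose by 0.36 (SE 0.11). The calls of Rps6kb1, Irs1 and Mtor were lost in both other fits. They were lost as well when 1 library was omitted: Rps6kb1 (any of animals 1, 7, 8 and 12, up to 0.082), Irs1 (any of animals 1, 2, 3, 7, 8 and 12, up to 0.206) and Mtor (any of animals 1, 2, 4, 6, 7, 8 and 12, up to 0.154).

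Stress genes rose mostly in animals 7, 8 and 12. Of 31 genes of oxidative stress and metal binding 5 rose, where 2.47% of all genes did, and the median was 0.12 (0.12). In the 4-week libraries alone 2 were called, and none was without animals 3, 4 and 8. Srxn1, which repairs oxidised peroxiredoxins, ran from 16.2 to 26.1 CPM (median 21.03) in wild type and stood at 73.0, 126, 44.6, 36.9 and 62.4 CPM in knockout, higher in 5 of 5 (1.64, SE 0.34, edgeR adjusted p = 0.00446, 0.0726 without animals 3, 4 and 8). Nqo1, a quinone reductase, was 5.83 to 11.8 CPM (median 7.30) in wild type and 42.1, 22.8, 13.8, 9.41 and 16.4 CPM in knockout. Mt1 and Mt2, the metallothioneins that bind zinc and copper, varied widely between animals of both groups. Mt1 ran from 6.83 to 55.0 CPM (median 9.13) in wild type, its top value in animal 6, and stood at 114, 399, 9.89, 8.13 and 114 CPM in knockout. Mt2 was 0.485 to 12.9 CPM (median 1.36) in wild type and 24.9, 166, 1.20, 1.14 and 26.5 CPM in knockout, with animals 7, 8 and 12 above and animals 10 and 11 within the wild-type range for both genes. Without animals 3, 4 and 8 the rises were 1.54 and 1.66 (edgeR adjusted p-values of 0.262 and 0.29). Omitting 1 library ended the calls of Mt1 (any of animals 1, 2, 8 and 12, up to 0.0992), Mt2 (any of animals 1, 2, 3, 8 and 12, up to 0.137) and Nqo1 (animal 7, up to 0.172).

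Of 17 genes of sarcomere strain and small heat shock proteins 8 rose and 16 had a log2 fold change above 0, where 2.47% and 49.6% of all genes did. The median was 0.94 (0.44), and 1 was called without animals 3, 4 and 8. Cryab, the chaperone alpha B crystallin, ran from 291 to 391.8 CPM (median 331) in wild type and stood at 1098, 1822, 409, 373 and 579.6 CPM in knockout, with animal 11 within the wild-type range. It was called in all 3 fits. Hspb1, the heat shock protein of the actin cytoskeleton, was 76.4 to 103 CPM (median 89.1) in wild type and 218, 449.6, 109, 99.0 and 131 CPM in knockout (1.10, SE 0.24), and Hspb7 was 188 to 283 CPM (median 219) in wild type and 928, 2348, 296, 248 and 507 CPM in knockout (1.85, SE 0.39). Ankrd1, a stretch-responsive repeat protein of the sarcomere, was 5.62 to 10.2 CPM (median 8.08) and 21.9, 204, 8.86, 5.70 and 25.9 CPM, and its call rested on animal 8 (edgeR adjusted p = 0.066 without it). Animal 8 held the highest value of all 4 genes and also the 29.3% of rRNA counts, whose part in the result was not tested.

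The promoter windows of Mt1, Mt2 and Hspb1 are shown because all 3 genes lay above the wild-type range in animals 7, 8 and 12. In the first pair, capitals mark matches to the metal response element, TGCACNC or TGCGCNC, on either strand (Mt1 at chr8:94178839-94179088, Mt2 at chr8:94172368-94172617, both plus strand, GRCm38.p6, RefSeq). In Hspb1 (chr5:135887669-135887918, plus strand) they mark matches to the heat shock element GAANNTTC, whose letters read the same on both strands.
Mt1: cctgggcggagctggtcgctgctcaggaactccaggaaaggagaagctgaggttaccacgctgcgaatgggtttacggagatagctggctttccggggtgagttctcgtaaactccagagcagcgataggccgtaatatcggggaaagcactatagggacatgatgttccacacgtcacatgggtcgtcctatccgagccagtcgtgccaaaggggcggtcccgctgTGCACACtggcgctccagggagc
Mt2: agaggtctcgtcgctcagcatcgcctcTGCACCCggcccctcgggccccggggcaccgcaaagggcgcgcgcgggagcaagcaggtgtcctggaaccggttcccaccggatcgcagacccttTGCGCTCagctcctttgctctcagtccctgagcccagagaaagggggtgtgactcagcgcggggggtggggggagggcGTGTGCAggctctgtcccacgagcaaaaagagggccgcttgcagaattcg
Hspb1: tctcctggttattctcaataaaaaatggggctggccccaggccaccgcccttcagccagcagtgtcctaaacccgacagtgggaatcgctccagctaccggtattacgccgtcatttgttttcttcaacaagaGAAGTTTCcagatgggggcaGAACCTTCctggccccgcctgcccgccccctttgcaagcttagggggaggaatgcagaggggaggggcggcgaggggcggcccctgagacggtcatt
The Mt1 window held 1 match and the Mt2 window 3, and 21.4% of all 32851 windows held at least 1 and 1.26% at least 3. The Hspb1 window held 2 heat shock matches, and 0.228% of windows held at least 2. The Nampt window held 2 metal response matches, and that gene fell. The Mt2 window also held 1 match to the antioxidant response element, and the Srxn1 window held 1 to the metal response element. Neither Srxn1 nor Nqo1 had a match to the antioxidant response element in these windows. Each window ends at the RefSeq start, and bases beyond it were not searched.

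Of 21 immediate early genes 6 rose, where 2.47% of all genes did, at a median of 0.39 (0.20). Junb ran from 5.55 to 10.4 CPM (median 7.44) in wild type and stood at 21.9, 88.3, 5.77, 8.41 and 21.4 CPM in knockout. Nr4a3, an orphan nuclear receptor induced by exercise, was 2.84 to 8.05 CPM (median 4.95) and 8.52, 72.0, 9.15, 4.21 and 45.0 CPM, and Rrad, a small GTPase that restrains calcium channels, was 2.81 to 5.62 CPM (median 4.15) and 15.5, 73.6, 2.69, 5.56 and 83.3 CPM. Animals 8 and 12 were high for the last pair, while animal 10 lay at or below the lowest wild-type value of Rrad. Junb was the 1 member called without animals 3, 4 and 8, and none was called in the 4-week libraries alone. Of 20 p53 targets 3 rose (Phlda3, Cdkn1a and Eda2r), again beside 2.47% of all genes, at a median of 0.29 (0.25), none of them in the other fits. The cell cycle inhibitor Cdkn1a ran from 6.58 to 18.4 CPM (median 8.64) in wild type and stood at 38.03, 93.5, 6.75, 10.3 and 17.1 CPM in knockout, high in animals 7 and 8. Phlda3, an Akt repressor, was at 1.01 (SE 0.26), and Eda2r, a receptor of ectodysplasin, at 0.96 (SE 0.29). Of 30 genes of the integrated and mitochondrial stress response 1 rose, the translation repressor Eif4ebp1, at 116, 63.2, 39.6, 44.6 and 54.0 CPM in knockout against 34.04 to 48.6 CPM (median 40.2) in wild type, a call lost without animals 3, 4 and 8 (edgeR adjusted p = 0.123). The median of that list was 0.12 (0.14). With 1 library omitted the calls ended for Rrad (animal 12, up to 0.0809), Cdkn1a (any of animals 1, 2, 7 and 8, up to 0.14), Phlda3 (any of animals 1, 7, 8 and 12, up to 0.0948), Eda2r (any of animals 1, 3, 4, 5, 7, 8 and 12, up to 0.295) and Eif4ebp1 (any of animals 1, 3, 4, 7 and 12, up to 0.261).

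Of 18 genes of the fast fibre program 1 fell, where 3.19% of all genes did. A log2 fold change below 0 was found in 17, where 50.4% of all genes had one, and the median was -0.26 (-0.20). Myh13, the myosin heavy chain of eye muscles, was the called member, at 5.07 to 7.85 CPM (median 5.95) in wild type and 1.86, 0.652, 2.23, 3.64 and 1.87 CPM in knockout (-1.51, SE 0.34, edgeR adjusted p = 0.00734). Myh1, the chain of type IIx fibres, was at -0.41 (SE 0.15) with an edgeR adjusted p of 0.108. The mean of the list stood at -0.76, -0.38 and -0.33 log2 units in animals 8, 7 and 12 and at -0.10 and -0.07 in animals 10 and 11, where the lowest wild-type library was at -0.08. Of 15 slow fibre genes none was called, at a median of 0.07 (0.03).

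In 30 genes of calcium handling and membrane excitability 1 rose and 2 fell, at a median of -0.16 (-0.09). Kcnq5, a voltage-gated potassium channel (chromosome 1, 21398403 to 21961942, minus strand), ran from 13.3 to 21.7 CPM (median 18.5) in wild type and stood at 3.87, 2.93, 5.09, 10.1 and 5.99 CPM in knockout, lower in 5 of 5. Scn2a, a sodium channel better known from neurons, was 1.28 to 3.77 CPM (median 2.74) in wild type and 0.930, 0.326, 1.20, 0.784 and 1.16 CPM in knockout, also without overlap. Ryr3, the ryanodine receptor of immature muscle, ran from 2.88 to 5.04 CPM (median 3.20) in wild type and stood at 5.73, 5.86, 8.80, 8.91 and 13.6 CPM in knockout (1.16, SE 0.29, edgeR adjusted p = 0.0149). Ryr3 was higher in 5 of 5 knockout libraries, and its largest values were in pool B. Ryr3 and Scn2a lost their calls without animals 3, 4 and 8 (edgeR adjusted p-values of 0.0869 and 0.0736) and on omitting 1 library: Ryr3 (animal 12, up to 0.0683) and Scn2a (animal 7, up to 0.0548).

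Among 18 genes of the neuromuscular junction and denervation, Chrna9 and Runx1 rose and Dach2 fell, at a median of -0.02 (-0.02). Dach2, a transcriptional cofactor known from denervated muscle, ran from 0.710 to 2.67 CPM (median 1.63) in wild type and stood at 0.147, 0, 0.229, 0.285 and 0.258 CPM in knockout, where animal 8 had no count and the others 3 or 4 (-2.94, SE 0.53, edgeR adjusted p = 0.000957). No knockout library reached the wild-type range, and the gene was called in all 3 fits. Runx1, a factor of denervated and regenerating muscle, was 3.77 to 4.59 CPM (median 4.12) in wild type and 7.98, 36.2, 3.72, 3.78 and 10.498 CPM in knockout, with animal 8 far above the rest and no call without animals 3, 4 and 8 (edgeR adjusted p = 0.272). Of 20 genes of regeneration and immature muscle 1 rose, the muscle regulatory factor Myf6 (0.46, SE 0.13), called in neither other fit, and the embryonic myosin chain Myh3 did not pass (0.73, SE 0.45, edgeR adjusted p = 0.349), at a list median of 0.13 (-0.02). The rises included the clock repressor Cry2, at 13.2 to 24.2 CPM (median 20.6) in wild type and 32.3, 23.8, 26.6, 26.8 and 32.4 CPM in knockout, and it was also called without animals 3, 4 and 8, while the median of 19 clock genes was -0.04 (0.04). Calls that ended with 1 library omitted were Runx1 (any of animals 1, 2, 3, 4, 5, 7, 8 and 12, up to 0.192), Myf6 (any of animals 1, 2, 3, 4, 6, 7 and 12, up to 0.249) and Cry2 (any of animals 1, 2, 7 and 12, up to 0.123).

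Markers of other cells were read as levels in the whole muscle, in which fewer cells of a type and less RNA per cell cannot be told apart. Of 24 macrophage markers 6 rose and 23 had a log2 fold change above 0, where 2.47% and 49.6% of all genes did, at a median of 0.89 (0.81). The markers summed to 202.9 to 333.8 CPM in wild type and to 577, 799, 213, 209 and 391 CPM in knockout animals 7, 8, 10, 11 and 12. Lgals3 ran from 1.49 to 3.0 CPM (median 2.04) in wild type and stood at 15.8, 55.1, 2.97, 2.64 and 17.9 CPM in knockout, and the pore protein Mpeg1 was 1.78 to 3.95 CPM (median 2.32) and 22.2, 58.3, 2.63, 1.85 and 14.5 CPM. Cd68, a lysosomal glycoprotein, was 1.47 to 5.79 CPM (median 2.61) in wild type and 15.03, 53.4, 2.23, 1.14 and 7.15 CPM in knockout, and the membrane glycoprotein Gpnmb was 1.19 to 2.55 CPM (median 1.75) and 13.7, 29.3, 1.20, 3.85 and 14.0 CPM. Animals 7, 8 and 12 exceeded every wild-type library for these 4 genes, and omitting 1 library ended the calls of Cd68 (any of animals 1 and 8, up to 0.0891) and Gpnmb (any of animals 1, 2, 7, 8 and 12, up to 0.0869). Lgals3 was the 1 member called without animals 3, 4 and 8, and none was called in the 4-week libraries alone. The fasting, atrophy, strain and immediate early genes above were likewise highest in animals 7, 8 or 12, and the part of macrophages in those results was not tested.

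Lymphocyte markers were high in 1 library. The 14 markers summed to 2.51 to 6.15 CPM in wild type and to 68.1 CPM in knockout animal 7, against 1.95 to 3.92 CPM in the other 4 knockout libraries. None of the 14 was called in the fit of all 37 libraries. In the 4-week libraries alone 3 were called higher, where 0.969% of all genes were. When animals 3, 4 and 8 were left out of those libraries, 4 were. Since the sum was high in animal 7 alone, these calls do not show a rise in the other animals. Cd79b, of the B cell receptor, stood at 10.6, 0.326, 0.172, 0.356 and 0.322 CPM and the T cell kinase Lck at 5.82, 0.326, 0.114, 0.285 and 0.129 CPM. Cd8a, of cytotoxic T cells, stood at 3.18 CPM in animal 7 and had no count in the other 4 knockout libraries. Cd28, the costimulatory receptor of T cells whose fall is given above, was not high in animal 7. Neutrophil markers also peaked there, with 8 genes summing to 11.1 CPM in animal 7, 4.89 in animal 8 and at most 3.80 in wild type, and the receptor Csf3r was called (2.28, SE 0.63, edgeR adjusted p = 0.0283), though not without animals 3, 4 and 8 (0.113). These markers are of low level, and their part in the rises led by animal 7 was not tested. Of 21 inflammatory genes Serpina3n and the chemokine Ccl2 rose, at a median of 0.66 (0.56). Serpina3n ran from 0.383 to 1.45 CPM (median 0.642) in wild type and stood at 6.75, 10.1, 0.858, 0.998 and 10.4 CPM in knockout, and Ccl2 was 0.242 to 1.09 CPM (median 0.367) and 1.42, 28.7, 0.172, 0.214 and 1.87 CPM, a call lost without animals 3, 4 and 8 (edgeR adjusted p = 0.546). The calls that a single omitted library ended were those of Ccl2 (any of animals 1, 2, 3, 4, 8 and 12, up to 0.421) and Csf3r (any of animals 1, 2, 5, 7, 8 and 12, up to 0.192).

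Among connective tissue genes, some fibroblast and tendon markers were called lower, while no gene of the separate extracellular matrix list was. Of 16 fibroblast markers 4 fell, where 3.19% of all genes did, and none rose, at a median of -0.37 (-0.29), and the markers summed to 2485 to 3348 CPM in wild type and to 2112, 1589, 1839, 2510 and 2565 CPM in knockout animals 7, 8, 10, 11 and 12. Cd55, which protects cells from complement, ran from 36.4 to 62.2 CPM (median 41.1) in wild type and stood at 16.7, 9.77, 17.3, 16.8 and 17.8 CPM in knockout, and was called in all 3 fits. Smoc2, a matricellular protein, was 152 to 212 CPM (median 167) in wild type and 93.9, 73.3, 122, 149 and 124 CPM in knockout, and the matrix proteins Dpt and Lum were at -0.56 (SE 0.16) and -0.62 (SE 0.19). Without animals 3, 4 and 8 the calls of Smoc2, Dpt and Lum ended (edgeR adjusted p-values of 0.13, 0.0685 and 0.0924), and Cd55 was the 1 fibroblast marker called. The whole wild-type range was undercut by Cd55 and Smoc2 in 5 of 5 knockout animals, by Dpt in 4 and by Lum in 2. Of 8 tendon markers 2 fell, where 3.19% of all genes did, at a median of -0.70 (-0.41). They were the proteoglycan Kera (36.95 to 55.3 CPM (median 41.5) in wild type, 9.35, 8.47, 22.1, 27.7 and 32.6 CPM in knockout) and tenomodulin, Tnmd (-0.86, SE 0.25), and neither was called in the other fits. Of 27 genes of the extracellular matrix 1 was called higher and none lower, at a median of -0.10 (-0.25). The collagen gene Col12a1 was not called but lay lower in 5 of 5 knockout libraries. It ran from 101 to 216 CPM (median 114) in wild type and stood at 39.5, 80.1, 72.9, 86.4 and 88.8 CPM in knockout. The riser was Timp1, an inhibitor of matrix proteases that lies within the gene Syn1 on the opposite strand, with 1.97 to 4.37 CPM (median 2.40) in wild type and 8.61, 61.3, 1.14, 1.14 and 10.8 CPM in knockout (2.16, SE 0.63, edgeR adjusted p = 0.0401). Animal 8 held by far the highest value and animals 10 and 11 the lowest, and the call ended without animals 3, 4 and 8 (edgeR adjusted p = 0.362). The mean of the matrix list stood at -0.47, 0.22, -0.66, -0.12 and 0.28 log2 units in knockout animals 7, 8, 10, 11 and 12, against -0.27 to 0.41 in wild type. Of 9 adipocyte markers the lipin Lpin1, which muscle also expresses, rose by 0.69 (SE 0.17) with an edgeR adjusted p of 0.0115, or 0.0653 without animals 3, 4 and 8. Calls lost on omitting a library were those of Smoc2 (any of animals 7 and 8, up to 0.0763), Dpt (any of animals 1, 2, 6, 7 and 8, up to 0.149), Lum (any of animals 1, 2, 5, 7, 8 and 12, up to 0.189), Kera (any of animals 1, 2, 3, 5, 7 and 8, up to 0.15), Tnmd (any of animals 2, 3, 5, 7 and 8, up to 0.173), Timp1 (any of animals 1, 2, 3, 4, 5, 7, 8 and 12, up to 0.26) and Lpin1 (animal 7, up to 0.102). No endothelial, pericyte and smooth muscle, nerve, red blood cell or cell cycle gene was called. All 12 Schwann cell and nerve markers tested had a log2 fold change above 0, where 49.6% of all genes did, at a median of 0.41 (0.50). Their mean stood at 0.33, -0.73, 0.76, 1.04 and -0.25 log2 units from the wild-type mean in knockout animals 7, 8, 10, 11 and 12, and wild type ran from -0.30 to 0.32.

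**Figure D3:**
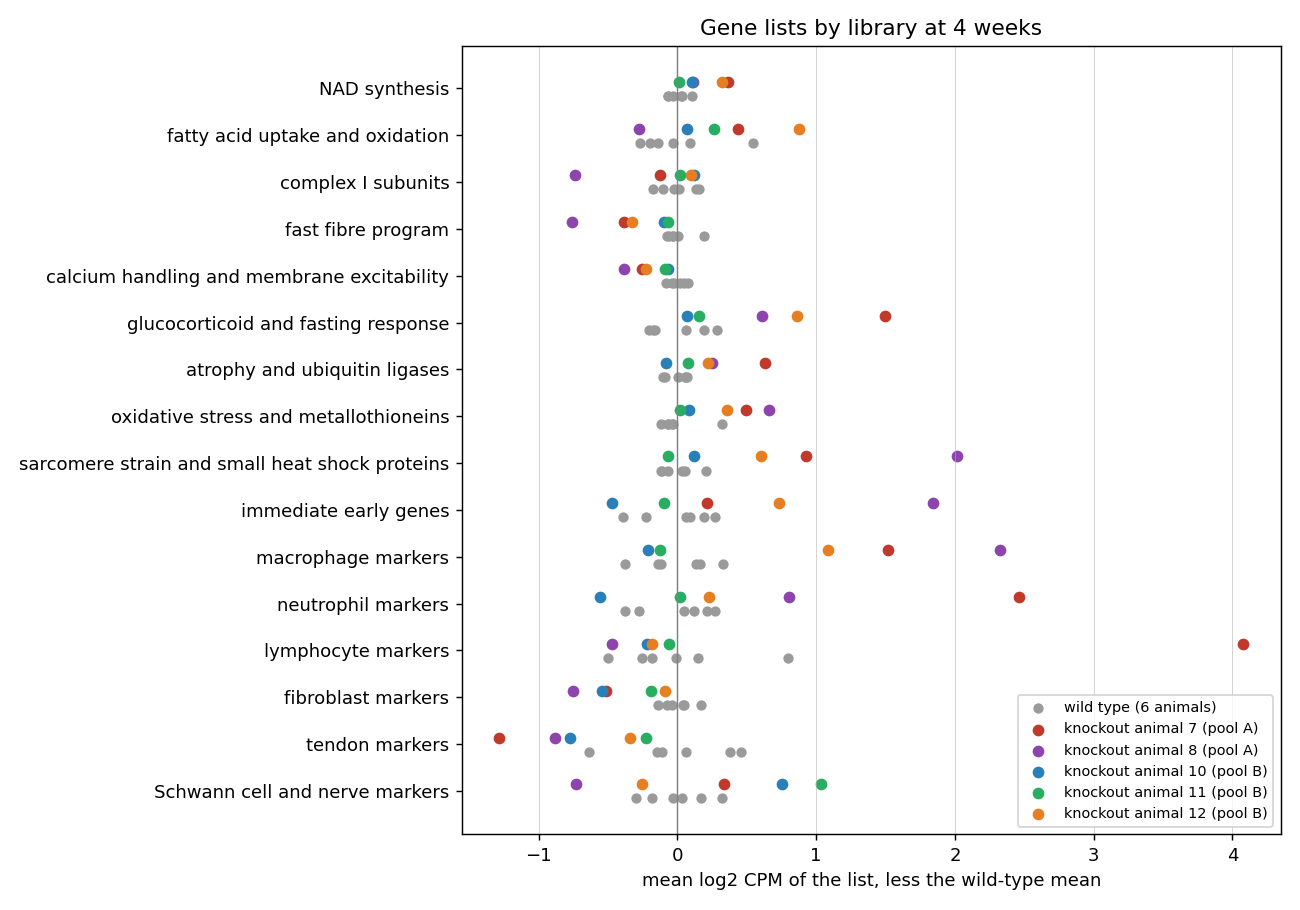
Mean log2 CPM of 16 gene lists in each library of 4 weeks, less the mean of the 6 wild-type libraries (grey points are wild type, coloured points are the 5 knockout animals). Animals 7, 8 and 12 lie to the right of the wild type for fasting, strain and macrophage genes, animals 10 and 11 lie at or near it, and animal 7 alone lies at 4.08 for lymphocyte markers.

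Over the whole set of called genes the 5 knockout animals also differed. Of the 413 rises, 403 lay above every wild-type library in animal 7, 363 in animal 8, 386 in animal 12, 209 in animal 10 and 214 in animal 11. Of the 534 falls, 499, 491 and 494 lay below every wild-type library in animals 7, 8 and 12, 303 in animal 10 and 73.4% of them in animal 11. These shares come from the libraries that made the calls and are a description. Over all genes tested, whether called or not, the share above every wild-type library was 23.04% in animal 7, 27.7% in animal 8, 13.0% in animal 10, 13.5% in animal 11 and 17.3% in animal 12, and the share below was 23.4%, 34.7%, 14.4%, 13.7% and 19.4%. All 5 knockout libraries lay beyond the wild type for 115 of the 413 rises and 220 of the 534 falls, against 1.03% of all genes above and 1.77% below.

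**Figure D4:**
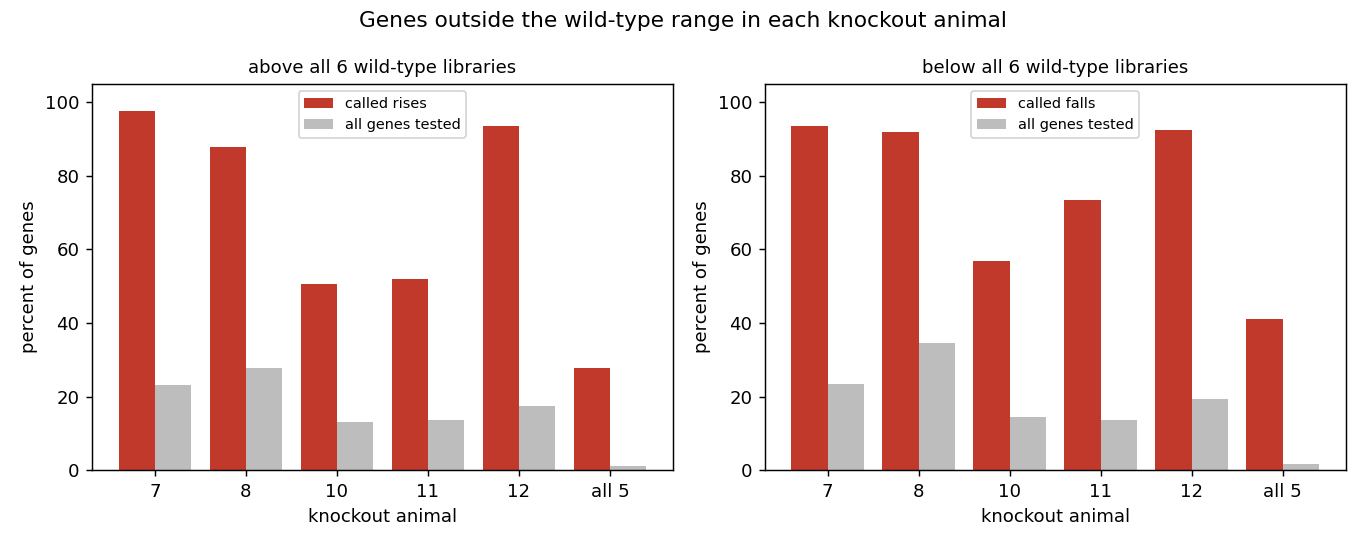
Percent of the called rises above all 6 wild-type libraries (left) and of the called falls below them (right) in each knockout animal and in all 5 together, with the same for all genes tested (grey). Animals 10 and 11 have 50.6% and 51.8% of the rises beyond the wild type and animals 7, 8 and 12 between 87.9% and 97.6%.

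Animals 7 and 8 are the pool A knockouts, so the pool and these animals cannot be told apart. The called rises had a median log2 fold change of 1.28 in pool A alone and 0.53 in pool B alone, and the called falls -0.83 and -0.35. A term for the difference between the pools passed in 23 genes (0.137%), of which 5 were among the rises and 8 among the falls. Fkbp5 was at 2.49 in pool A and 0.29 in pool B (edgeR adjusted p = 0.00446 for the difference), and Gabarapl1 at 1.85 and 0.14 (0.0246). For Nampt the difference had an edgeR adjusted p of 0.934, for Nmrk2 of 0.766 and for Tspan8 of 0.984. With 2 knockout libraries in pool A, a p that misses the threshold does not show that the pools were alike.

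At 2 weeks most of the called genes lay in the direction of 4 weeks. Of the 413 rises 299 (72.4%) were above 0 at 2 weeks, where 45.2% of all genes were, and of the 534 falls 492 (92.1%) were below 0, where 54.8% of all genes were. The medians at 2 weeks were 0.10 for the rises and -0.17 for the falls, and 0.90 and -0.55 at 4 weeks. The genes were picked for passing at 4 weeks, which enlarges their medians at that age, so these medians are a description and show no difference in size. Chrna9 was called at 2 weeks already (1.65, edgeR adjusted p = 0.00435), as were Ryr3 (1.30) and Nampt (-0.96). Nmrk2 stood at 1.83 at 2 weeks with an edgeR adjusted p of 0.2 and Ppif at 0.48 with 0.0792. In edgeR no gene passed the test of the difference between 4 and 2 weeks (0.0%), while 1171 genes had a raw p below 0.05 (836.4 by chance), and DESeq2 called 4.

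Against 8 weeks, the 4-week difference was itself different in 4578 genes (27.4% of genes tested), 130 of the 413 rises and 203 of the 534 falls among them. Since the genes were picked at 4 weeks, these 2 counts are a description. At 8 weeks the wild-type animals 34 and 35, the pool A wild types of that age, had 20.3% and 23.1% of their counts in rRNA genes, and without them 3914 genes (23.4%) differed between the ages, 3605 of them in both fits. The 3914 included 133 of the rises and 157 of the falls. Without animals 34 and 35 every 8-week wild type is in pool B, while knockout animals 39, 40 and 41 are in pool A. The 12 genes that follow for 8 weeks differed between the ages in both fits. Nampt was lower at 8 weeks (-2.05, edgeR adjusted p = 9.57e-06 for the difference from 4 weeks), and Nmrk2 had risen by less (1.98, edgeR adjusted p = 0.00864 for the difference). Several genes called higher at 4 weeks were not called at 8 weeks and differed between the ages, among them Plin3 (-0.10, 0.000173), Fbxo32 (-0.69, 0.00222) and Pdk4 (-0.18, 0.00667). Odf3l2 turned from 2.34 at 4 weeks to -4.46 at 8 weeks (edgeR adjusted p = 9.5e-06).

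The falls also parted by age. Cd55 (-0.23, edgeR adjusted p = 0.00478 for the difference), Sema3a (0.04, 0.00276) and Arpp21 (0.19, 0.00693) were not called at 8 weeks. Amy1 (-3.72, 0.000366), Myh13 (-3.72, 0.00208) and Dach2 (-6.26, 0.004) had fallen further. The fatty acid list had a median of -0.71 at 8 weeks against 0.19 at 4 weeks, and 29 of its 39 members differed between the ages (-0.86 and 29 without animals 34 and 35). The macrophage list had 2.93 against 0.89, and 14 of its 24 members differed (2.82 and 13 without animals 34 and 35).

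**Figure D5:**
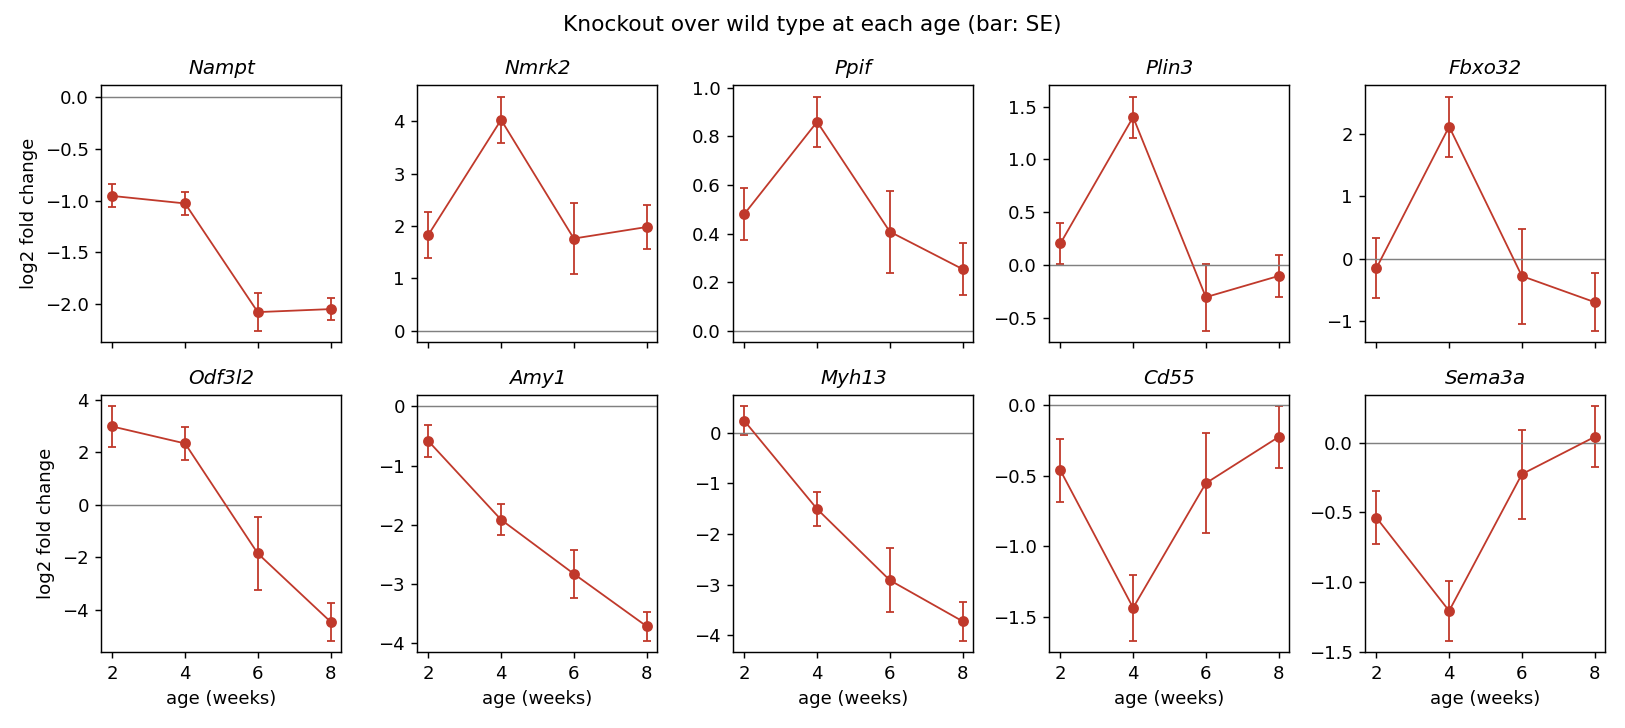
Log2 fold change of knockout over wild type at 2, 4, 6 and 8 weeks for 10 genes, with bars for SE and a grey line at 0. Nmrk2, Plin3 and Fbxo32 are highest and Cd55 and Sema3a lowest at 4 weeks, while Nampt, Amy1 and Myh13 lie lower at 8 than at 4 weeks and Odf3l2 changes sign.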

How the data were processed

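RNA from gastrocnemius was sequenced in 37 libraries of wild-type and knockout mice, of which 11 are from 4 weeks. The authors deposited 1 table of raw read counts for 50686 genes, of which 15977 had no count in any library. STAR 2.5.2b, featureCounts 1.5.2, edgeR 3.22.0 and mm10 are named, per the submitters' processing notes. Per the labels, the kit was a stranded total RNA kit with removal of rRNA, read in pairs of 38 bases. The annotation and the strand setting of the counting are not given in the sources used here. Symbols and positions were taken from GENCODE release M21 (GRCm38) for 50462 of the gene IDs, 4639 of them matched without the version number. Reads of nuclear rRNA genes stayed in the table, and TMM factors were used to scale the libraries.

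Counts of all 37 libraries were fitted with edgeR 4.0.16 in R 4.3.3 (quasi-likelihood, robust), with a term for each genotype and age and one for the sequencing pool. Genes were kept by filterByExpr, set to 10 counts per library and 15 in total, which left 16728, and p-values were adjusted over all of them by Benjamini-Hochberg at a threshold of 0.05. The biological coefficient of variation common to all genes came to 0.189, on 28 residual degrees of freedom. In counts simulated for the 4-week comparison over 16728 genes, 82% of genes changed by 1 log2 unit and 37% of those changed by 0.5 were recovered, and 1.65% of calls were false. The simulated libraries were independent, and each changed gene, of mean CPM above 1, was shifted alike in every knockout library. The real knockout animals were unlike one another, so these rates do not describe the calls given above. CPM values are counts relative to the TMM-scaled library size.

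The genes named are Nampt and the tested genes of NAD synthesis, the 20 largest rises and 20 largest falls called also without animals 3, 4 and 8 with a mean log2 CPM of 1 or more, and up to 4 members of each list with the smallest p, with further members where a statement needed them. Predicted and sex-linked genes were left out, and some results that this rule names are not reported here. The libraries compared, the members and the lists were chosen with earlier results of these data known. Alternatives were other scaling (RLE factors or none), no filter, no pool term, the 4-week libraries alone, each pool alone, terms for sex, DESeq2 1.42.0, and leaving out libraries. Promoter windows are from RefSeq (GRCm38.p6).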

Additional observations from a re-analysis of the deposited data

Results flagged for a closer look

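In 32 of 226 groups of values for named genes, 1 library stood apart from the rest of its group. The rule took the gap to the nearest neighbour over the range of the group. Chance gives about 1 in 20 for independent, normally distributed values. The CPM values were not log-transformed, the genes share the same libraries, and many were named for their change in them. The count is therefore a description and shows no excess over chance. Wild type animal 1 stood apart in Cd55 (62.17 CPM, others 36.43 to 43.72), Rps6kb1 (76.49 CPM, others 53.8 to 61.42), Myh1 (6480.0 CPM, others 4916 to 5439) and Ckm (31740.0 CPM, others 24230.0 to 26120.0). Wild type animal 2 stood apart in Smoc2 (211.8 CPM, others 151.7 to 168.7) and Timp1 (4.369 CPM, others 1.974 to 2.425). In wild type animal 3 the value that stood apart was Kera at 55.26 CPM (others 36.95 to 43.26). In wild type animal 4 the value that stood apart was Nqo1 at 11.75 CPM (others 5.835 to 7.76). Wild type animal 6 stood apart in Hk2 (174.6 CPM, others 251 to 270.0), Angptl4 (12.2 CPM, others 1.215 to 5.243), Mt1 (55.04 CPM, others 6.832 to 11.4), Mt2 (12.9 CPM, others 0.485 to 2.387), Gabarapl1 (31.67 CPM, others 18.68 to 22.17) and Sat1 (13.79 CPM, others 10.18 to 10.93). Knockout animal 7 stood apart in Cyp1b1 (5.629 CPM, others 0.3258 to 1.481), Depp1 (159.1 CPM, others 6.488 to 33.3), Fbxo32 (1044 CPM, others 44.76 to 196.2), Plin3 (165.4 CPM, others 69.45 to 96.03), Lck (5.825 CPM, others 0.1143 to 0.3258), Cd8a (3.182 CPM, others 0.0 to 0.0) and Cd79b (10.57 CPM, others 0.1715 to 0.3565). Knockout animal 8 stood apart in Junb (88.29 CPM, others 5.774 to 21.93), Cd55 (9.774 CPM, others 16.74 to 17.84), Bche (2.932 CPM, others 5.775 to 6.861), Mt1 (399.4 CPM, others 8.128 to 114.5), Mt2 (165.5 CPM, others 1.141 to 26.54), Ankrd1 (204.3 CPM, others 5.704 to 25.89), Runx1 (36.16 CPM, others 3.716 to 10.498), Cd68 (53.43 CPM, others 1.141 to 15.03), Ccl2 (28.67 CPM, others 0.1715 to 1.868) and Timp1 (61.25 CPM, others 1.141 to 10.82). In knockout animal 11 the value that stood apart was Nmnat3 at 15.97 CPM (others 16.94 to 17.23). The same rule picked the rRNA share of knockout animal 8 (29.3%) and the mitochondrial share of wild-type animal 3 (25.04%) and knockout animal 8 (19.8%). Among means of gene lists, in log2 units from the wild-type mean, it picked lymphocyte markers in knockout animal 7 (4.08), the fast fibre program in wild-type animal 1 (0.19), complex I in knockout animal 8 (-0.74) and oxidative stress genes in wild-type animal 6 (0.32).

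The knockout effect at 4 weeks differed from that at 8 weeks in 34 named genes called at 4 weeks, with edgeR adjusted p-values for the difference from 9.499e-06 to 0.0386. Without the rRNA-rich wild-type animals 34 and 35 of 8 weeks 32 of the 34 differed, and Runx1 (edgeR adjusted p = 0.0767) and Kera (0.135) did not pass. The 4-week effect less the 8-week effect, in log2 units, was positive for Nampt (1.02), Nmrk2 (2.05), Odf3l2 (6.805), Depp1 (2.38), Fbxo32 (2.81), Dusp18 (1.78), Klhl38 (2.86), Retreg1 (1.34), Gabrr2 (2.34), Fkbp5 (1.75), Plin3 (1.502), Amy1 (1.80), Fer1l6 (1.41), Myh13 (2.22), BB218582 (1.65), Hk2 (1.14), Pdk4 (2.498), Plin4 (0.99), Pnpla2 (1.05), Ppif (0.61), Gadd45b (1.57), Gabarapl1 (1.23), Dach2 (3.32), Kera (1.38) and Lpin1 (1.01). It was negative for Cd55 (-1.21), Sema3a (-1.25), Prrg1 (-0.64), Arpp21 (-1.28), Ucp2 (-1.26), Slc25a5 (-0.87), Runx1 (-1.58), Dpt (-1.24) and Lum (-1.51). A positive difference means that knockout over wild type was higher at 4 weeks than at 8 weeks. The effect in pool A exceeded that in pool B for Fkbp5 (2.21, edgeR adjusted p = 0.00446) and Gabarapl1 (1.71, edgeR adjusted p = 0.0246).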

How the results depend on the processing

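The number of genes called at 4 weeks was 947 and moved by over 1.5 times under 8 alternatives. It was 120 with library sizes left unscaled, 562 with no filter on low counts, 310 in the 4-week libraries alone, 263 without animals 3, 4 and 8, 67 with both of the last changes, 20 in pool B alone, 91 in the 4-week libraries alone with labelled sex, and 435 without animals 4 and 12. It was 915 with RLE factors, 888 with no pool term, 668 in pool A alone, 929 with sex read from counts and 1338 by DESeq2. Omitting 1 library gave 345 (without animal 7) to 1640 (without animal 10), and 504, 472 and 552 without animals 1, 8 and 12. The share of calls that were higher was 43.6% (413 and 534 lower), 68.3% unscaled (82 and 38) and 54.3% by DESeq2 (726 and 612). The median of all genes was -0.0028, 0.03 unscaled and 0.03 by DESeq2. Nampt kept its direction and its call throughout, from -1.13 to -0.88, and from -1.13 to -0.96 with 1 library omitted. The difference between 4 and 2 weeks called 0 genes, 4 by DESeq2 and 0 to 1 with 1 library omitted (1 without animal 11). That between 4 and 8 weeks called 4578, 7390 unscaled, 3914 without wild-type animals 34 and 35 of 8 weeks (an alternative chosen after seeing the data), and 3772 to 5154 with 1 library omitted. The pool difference called 23 genes, 4 unscaled, 35 with no filter, 15 in the 4-week libraries alone, 44 without animals 3, 4 and 8, and 3 (without animals 1 or 10) to 143 (without animal 7) with 1 library omitted. Of 90 other named genes called at 4 weeks, none reversed under these alternatives. In the 4-week libraries alone 38 were called, 44 without animals 3, 4 and 8, and 16 with both changes. In pool B alone 9 were called, 43 unscaled and 90 by DESeq2. The causes were not tested. Animal 8 has the fewest counts, 6668855, so low genes are least precise there. No paired analysis was possible because each replicate number in the labels occurs in 1 group only.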
